A study of Mus musculus with 4 samples.

Results

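The macrophage and myeloid genes are 10 genes that mark cells of the macrophage lineage: Spi1, Csf1r, C1qa, C1qb, C1qc, Cd68, Ptprc, Tyrobp, Itgam and Aif1. They were chosen by name from the 21523 protein-coding genes placed on chromosomes 1 to 19 and X, with earlier results of these data known. The study mapped phosphorylated Smads by CUT&RUN, which releases the DNA around an antibody-bound protein by tethered micrococcal nuclease. The material was molar tooth germs of wildtype CD1 mouse embryos at stage E13.5, dissociated to single cells. Phosphorylated Smad1/5 (pSmad1/5) was profiled in 2 libraries, and phosphorylated Smad3 (pSmad3) in 2 others. The deposited data are 1 list of common peaks per antibody, so no value exists here for a single library and no spread between libraries can be given. The lists give neither read depth nor RNA levels, so the tissue label and the presence of macrophages could not be checked against transcripts. Which of the pooled cells gave a peak cannot be told apart.

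Macrophages seed embryonic tissues early and clear dying cells there. Their identity rests on the transcription factor PU.1, encoded by Spi1, and their survival on the receptor encoded by Csf1r. Smad1/5 is phosphorylated by BMP receptors and Smad3 by TGF-β and activin receptors. In the mouse brain, TGF-β is known to maintain the gene programme of microglia, the resident macrophages.

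A pSmad1/5 peak lay in the locus of 5 of the 10 genes, and a pSmad3 peak in the locus of 5. The locus is the gene body with 10 kb on each side. Over all protein-coding genes the shares were 27.3% for pSmad1/5 and 24.4% for pSmad3. Csf1r, C1qa and Aif1 had peaks of both antibodies, a pattern of 14.1% of protein-coding genes. C1qb and C1qc had a pSmad1/5 peak alone, and Spi1 and Cd68 a pSmad3 peak alone. Ptprc, Tyrobp and Itgam had neither, like 62.4% of protein-coding genes. Here alone means that the other list holds no line there, not that its signal was absent.

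These counts rest on few peaks, because the loci of the C1q genes overlap. The 5 genes with pSmad1/5 shared 3 peaks, of which 1 served C1qa, C1qb and C1qc, while the 5 genes with pSmad3 had 7 peaks. With overlapping loci counted once, 3 of 8 loci had a pSmad1/5 peak and 5 of 8 a pSmad3 peak. With the gene body alone, 1 of the 10 genes had a pSmad1/5 peak and 3 had a pSmad3 peak, against 18.4% and 16.8% of all protein-coding genes. Longer loci held peaks more often. Among protein-coding genes with a locus of at most 30 kb, 20.6% held pSmad1/5 and 18.5% pSmad3 peaks, against 31% and 27.7% of those with a longer locus. The C1q genes, Cd68, Tyrobp and Aif1 are in the short class, where 4 of 6 had a pSmad1/5 and 3 of 6 a pSmad3 peak. In the long class, 1 of 4 had a pSmad1/5 and 2 of 4 a pSmad3 peak. No test was made on any of these counts.

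Spi1, whose product PU.1 directs myeloid development, had 2 pSmad3 peaks inside the gene and no pSmad1/5 peak in its locus. The gene lies on chromosome 2 from 91082374 to 91115759 (mm10, as all coordinates here). A pSmad3 peak inside the gene ran from 91093561 to 91099558, with a total signal above 83.5% of the pSmad3 list and a maximum signal of 13, equal to the list median. The other pSmad3 peak ran from 91110236 to 91114782, 0.977 kb short of the higher-coordinate end of the gene, with a total above 19.4% of the list and a maximum of 13. Total and maximum are the authors' coverage values in their own scaling, and a long peak can have a high total with an ordinary maximum. They belong to the call behind a printed peak, which can reach beyond it, and whether they come from 1 library or both is not stated. The nearest pSmad1/5 peak lay 16761 bp away over Mybpc3, a gene of heart muscle, and ended 49 bp from a pSmad3 peak that spans Mybpc3 and Madd. Another pSmad3 peak lay 11026 bp away over Slc39a13, a zinc transporter, just outside the locus limit.

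Csf1r, the receptor for the macrophage growth factors CSF1 and IL-34, was the only one of the 10 with peaks of both antibodies inside the gene body. It lies on chromosome 18 from 61105572 to 61131139. The pSmad1/5 peak ran from 61125895 to 61128056, with a total above 30.6% of the pSmad1/5 list and a maximum of 15 against a list median of 16. That maximum was recorded outside the peak, at 61130389 to 61130395, still inside the gene and 744 bp from its higher-coordinate end. The pSmad3 peak was 11607 bp long, from 61110451 to 61122057, with a total above 87.8% of the pSmad3 list and a maximum of 14 against a list median of 13. The peaks of the antibodies did not overlap, and 3838 bp separated them. Over Pdgfrb, the neighbouring receptor gene of mesenchymal and perivascular cells, a pSmad1/5 call in 2 pieces lay 31245 and 38961 bp from Csf1r (total above 84.9% of its list, maximum 24). A pSmad3 call in 2 pieces lay there too, 48976 and 58180 bp away (above 92.8%, maximum 15). The farther piece also lay over the protein-coding gene Gm52351, and the maximum of the call lay over Gm52351 and not over Pdgfrb.

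**Figure D1:**
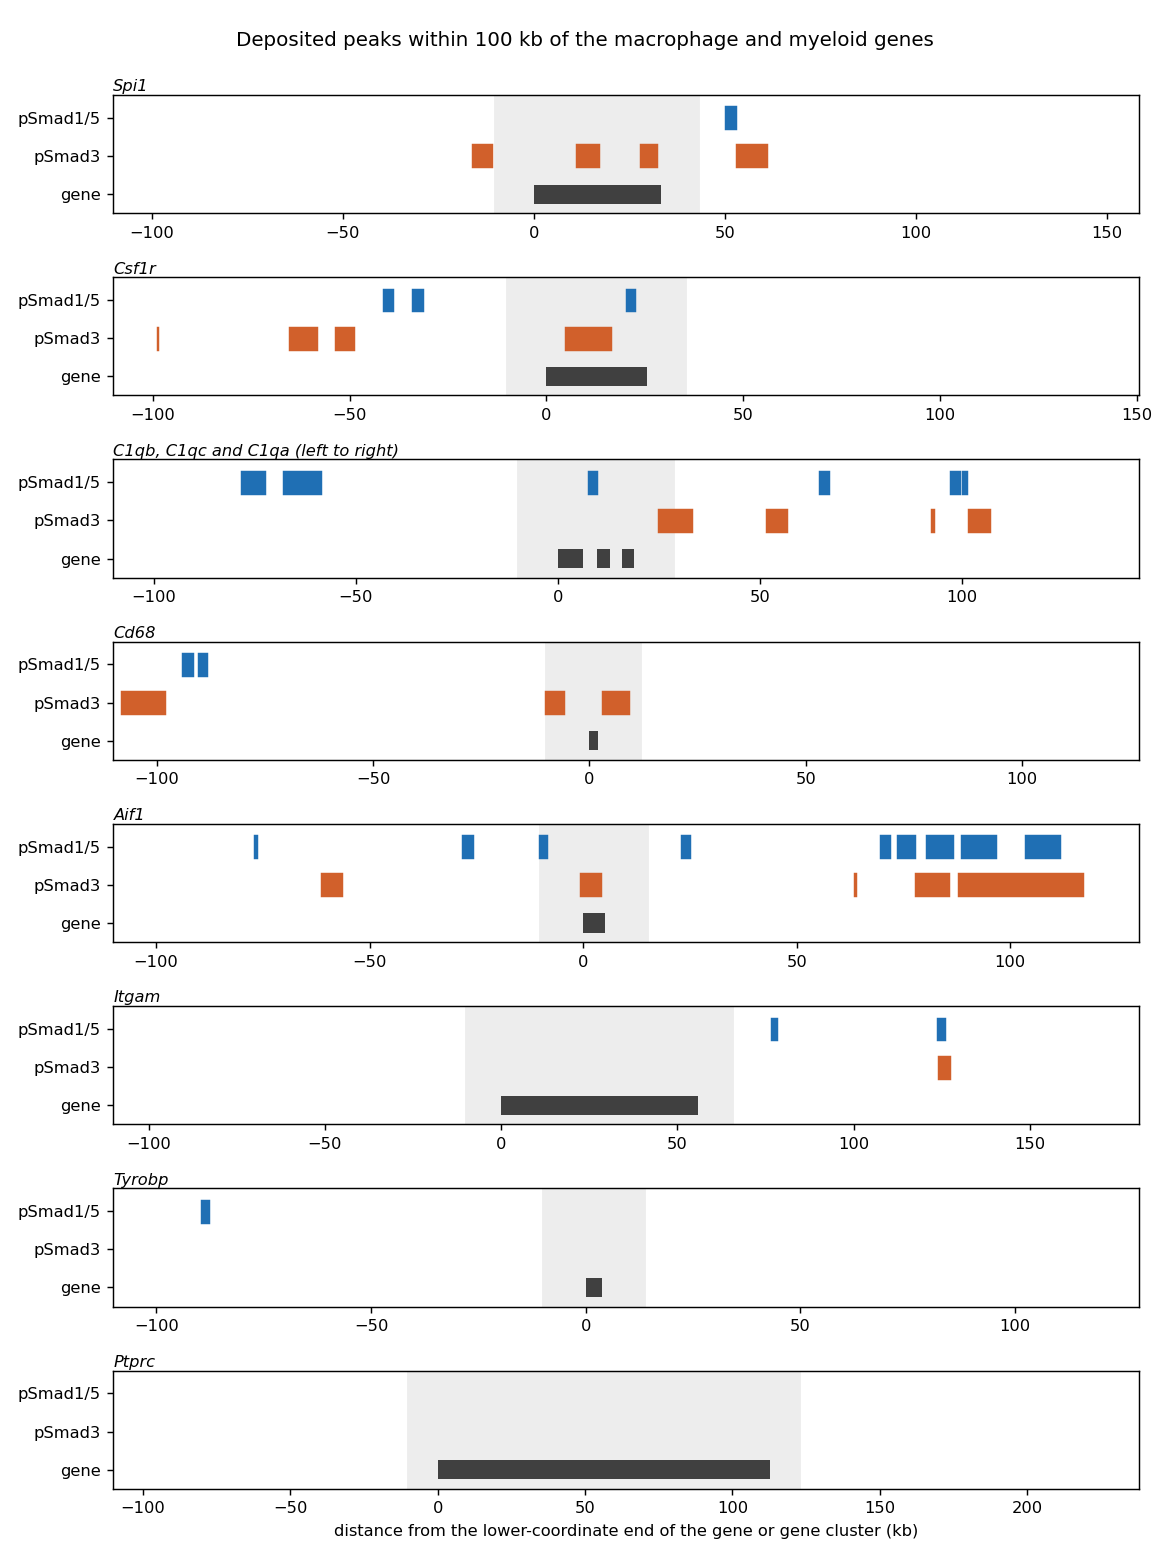
Each panel shows a gene or gene cluster (black) with the deposited pSmad1/5 peaks (blue) and pSmad3 peaks (orange) within 100 kb of it, against the distance in kb from its lower-coordinate end; grey marks the locus, and scales differ between panels. Both colours lie over the body of Csf1r, pSmad3 peaks alone lie over Spi1 and Aif1, and none is near Ptprc.

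C1qa, C1qb and C1qc encode the chains of C1q, which starts the classical complement pathway and tags debris for uptake. They stand side by side on chromosome 4, C1qb from 136880126 to 136886200, C1qc from 136889801 to 136892936 and C1qa from 136895916 to 136898844. The shared pSmad1/5 peak, from 136887450 to 136889690, lay in the gap between C1qb and C1qc, 1250 bp from C1qb, 111 bp from C1qc and 6226 bp from C1qa. Its total lay above 44.9% of the list and its maximum of 19 above 71.4%, the highest maximum of the 3 pSmad1/5 peaks at these genes. The maximum was recorded inside C1qb, at 136883046 to 136883119, which is 12797 bp from C1qa and outside its locus. The span from this maximum to the peak takes in the annotated start of C1qb. The pSmad3 peak lay on the other side of the cluster, from 136904903 to 136913216, 6059 bp from C1qa in sequence outside genes. Its total was above 89.7% of the pSmad3 list and its maximum was 15. That maximum, at 136912390 to 136912393, lay 13546 bp from C1qa and so outside the locus. The near end of the peak reached the locus of C1qa but not those of C1qc, 11967 bp away, and C1qb, 18703 bp away. The peaks of the antibodies in this cluster were 15213 bp apart.

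Upstream sequences follow for C1qb and C1qc, whose starts lie nearest to the shared pSmad1/5 peak. Each is the 250 bases before an annotated transcript start (RefSeq, GRCm38.p6), 5′ to 3′ on the minus strand, at chr4:136886201-136886450 for C1qb and chr4:136892915-136893164 for C1qc, whose window begins inside the gene span given above because that span reaches beyond this start. Capitals mark matches on either strand to the Smad-binding motif CAGAC, the GC-rich Smad motif GGCGCC, the palindrome GTCTAGAC or the PU.1 motif GAGGAAG.
C1qb promoter: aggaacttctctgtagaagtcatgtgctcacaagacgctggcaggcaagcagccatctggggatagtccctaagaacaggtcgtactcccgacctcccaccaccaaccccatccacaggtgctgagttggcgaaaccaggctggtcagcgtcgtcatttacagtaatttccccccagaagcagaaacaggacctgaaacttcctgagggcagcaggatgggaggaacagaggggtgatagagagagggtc
C1qc promoter: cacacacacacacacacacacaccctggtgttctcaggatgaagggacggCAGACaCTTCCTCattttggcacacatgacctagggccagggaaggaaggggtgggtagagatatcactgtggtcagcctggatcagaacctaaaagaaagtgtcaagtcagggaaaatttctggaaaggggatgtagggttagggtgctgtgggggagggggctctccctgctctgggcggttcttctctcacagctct
The C1qb window lay 1000 bp from the pSmad1/5 peak, between it and its maximum, and held none of the motifs. The C1qc window lay 3225 bp from the peak and held 1 CAGAC match next to 1 match to GAGGAAG in the form of its reverse complement, CTTCCTC. Among 21045 such windows of protein-coding genes, 40.7% held CAGAC, 12.4% GGCGCC, 0.185% GTCTAGAC and 10.4% GAGGAAG. A match is a description of the letters and not a bound site.

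Aif1 encodes IBA1, an actin-bundling protein used as a macrophage stain, and its body was mostly covered by a pSmad3 peak. The gene lies on chromosome 17 from 35170986 to 35176083, on the minus strand. The pSmad3 peak ran from 35170259 to 35175176, with a total above 46.6% of its list and a maximum of 16, above 76.9% of the list. The maximum, at 35170994 to 35171034, lay 8 bp inside the lower-coordinate end, which on this strand is the 3′ end of the gene. The peak stopped 0.907 kb short of the higher-coordinate end of the gene. The pSmad1/5 peak of the locus, from 35160620 to 35162540, lay 8446 bp from Aif1 over Prrc2a, a broadly expressed neighbour. Its total was above 33.5% of the pSmad1/5 list and its maximum of 13 above 4.28%, the lowest maximum of the pSmad1/5 peaks at these genes. The surroundings of Aif1 in the major histocompatibility region were rich in peaks, with 9 pSmad1/5 and 5 pSmad3 peaks within 100 kb. Of these pSmad1/5 peaks, 2 over Ddx39b were pieces of 1 call. Of all protein-coding genes, 98.7% had no more pSmad1/5 and 95.3% no more pSmad3 peaks in that range. The C1q genes all had the same 6 pSmad1/5 and 4 pSmad3 peaks in such a range, where the shares were 94.7% and 91.9%. Among these pSmad1/5 peaks, 2 over Ephb2 were pieces of 1 call, as were 2 over or next to Zbtb40. Spi1 and Csf1r also had 4 pSmad3 peaks each, of which 2 near Csf1r were pieces of 1 call. A pSmad3 peak of 29401 bp that began 82550 bp from Aif1 and reached over H2-D1, an antigen-presenting class I gene, overlapped pSmad1/5 peaks and had a total above 97.1% of its list.

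Cd68 encodes a lysosomal glycoprotein of macrophages, and its pSmad3 peaks lay over neighbours rather than over Cd68 itself. The gene lies on chromosome 11 from 69664213 to 69666170, on the minus strand. The nearer pSmad3 peak, from 69667179 to 69673248, began 1009 bp from Cd68 and lay over Eif4a1, a translation initiation factor gene, and Senp3, a SUMO protease gene. Its total was above 57.6% of the list and its maximum of 12 above 21.3%. That maximum lay 521 bp upstream of the annotated start of Eif4a1. The farther peak, from 69653893 to 69658389, lay 5824 bp away over Sox15, a transcription factor gene, and Mpdu1, with a total above 20.3% of the list and a maximum of 12. Its maximum lay 399 bp upstream of the annotated start of Sox15. The nearest pSmad1/5 peak was 88320 bp away over Wrap53.

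The upstream windows of Aif1 and Cd68 lay outside the peaks, while those of Sox15 and Eif4a1 lay inside them. The sequences of Cd68, Sox15 and Eif4a1 are the 250 bases before an annotated transcript start (RefSeq, GRCm38.p6), 5′ to 3′ in the direction of the gene, with the same motifs in capitals. The positions are chr11:69666171-69666420 for Cd68 and chr11:69672424-69672673 for Eif4a1, both on the minus strand, and chr11:69654787-69655036 for Sox15 on the plus strand.
Cd68 promoter: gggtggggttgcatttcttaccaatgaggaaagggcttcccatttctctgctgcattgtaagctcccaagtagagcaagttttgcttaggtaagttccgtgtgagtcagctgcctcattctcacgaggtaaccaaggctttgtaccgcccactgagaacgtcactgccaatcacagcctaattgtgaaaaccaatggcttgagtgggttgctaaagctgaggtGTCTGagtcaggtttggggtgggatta
Sox15 promoter: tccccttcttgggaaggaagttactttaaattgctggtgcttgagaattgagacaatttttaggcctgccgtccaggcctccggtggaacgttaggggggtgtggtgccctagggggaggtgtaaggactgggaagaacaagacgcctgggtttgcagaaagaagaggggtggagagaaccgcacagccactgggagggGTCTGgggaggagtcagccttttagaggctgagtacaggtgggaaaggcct
Eif4a1 promoter: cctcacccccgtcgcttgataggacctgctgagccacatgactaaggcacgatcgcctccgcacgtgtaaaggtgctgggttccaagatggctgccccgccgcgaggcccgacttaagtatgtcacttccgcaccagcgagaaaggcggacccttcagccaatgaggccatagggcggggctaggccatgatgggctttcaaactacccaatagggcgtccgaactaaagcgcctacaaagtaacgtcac
The Aif1 window was 877 bp and the Cd68 window 759 bp from the nearest pSmad3 peak. Cd68 and Sox15 each held 1 CAGAC match, in the form of its reverse complement GTCTG, and Aif1 and Eif4a1 held none of the motifs. Windows were given for 6 of the 10 genes. The Itgam window held 1 GAGGAAG match, and the windows of Ptprc none.

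Itgam, Tyrobp and Ptprc had no peak in the locus. Itgam, the integrin chain CD11b (chromosome 7, 128062640 to 128118491), had its nearest pSmad1/5 peak 20775 bp away over the neighbouring integrin gene Itgax. Farther off, 67659 bp from Itgam, a pSmad1/5 peak over Itgad overlapped a pSmad3 peak, with maxima of 52 and 26 against list medians of 16 and 13. Their totals were below the middle of the lists, above 34.4% and 40.9% of lines. Tyrobp, the adaptor DAP12 that signals for myeloid receptors (chromosome 7, 30413782 to 30417582), had 1 pSmad1/5 peak at 87646 bp and its nearest pSmad3 peak at 103801 bp. Ptprc, the leukocyte phosphatase CD45 (chromosome 1, 138062859 to 138175756), is the longest of the 10 genes and was the farthest from any peak. Its nearest pSmad1/5 peak lay 504.7 kb and its nearest pSmad3 peak 444.6 kb away.

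**Figure D2:**
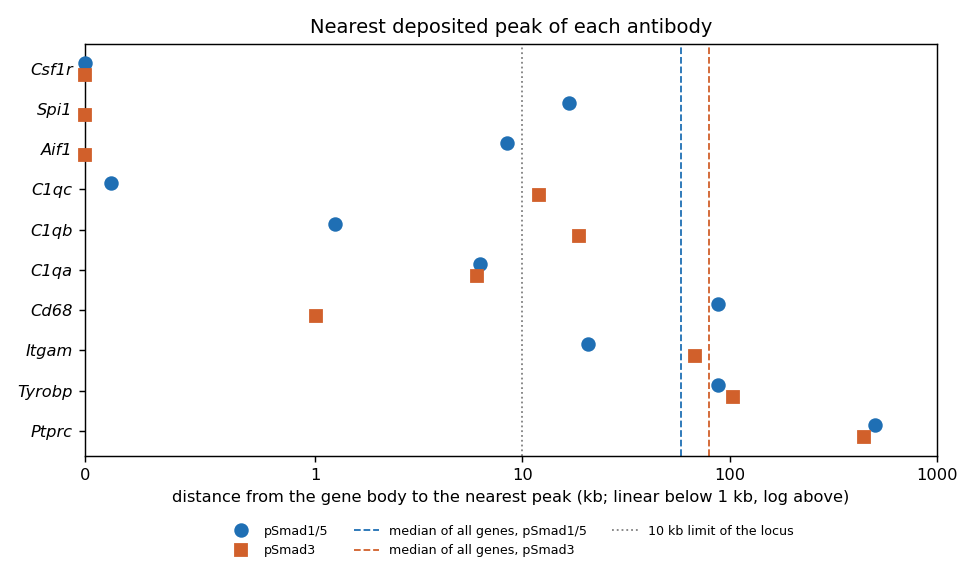
Points give the distance in kb from each gene body to the nearest pSmad1/5 peak (blue circles) and pSmad3 peak (orange squares), on an axis that is linear below 1 kb and logarithmic above; dashed lines are the medians over 21523 protein-coding genes and the dotted line is the 10 kb limit. Csf1r is at 0 for both antibodies, Spi1 and Aif1 are at 0 for pSmad3 alone, and Ptprc lies to the right of both medians.

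In distance to the nearest peak, 7 of the 10 genes were closer than the median protein-coding gene for pSmad1/5 and 8 of 10 for pSmad3. These counts take C1qa, C1qb and C1qc as separate genes, although they have the same nearest peak of each antibody. The medians over all protein-coding genes were 58091 bp for pSmad1/5 and 79225 bp for pSmad3. Within 100 kb, Ptprc had no pSmad1/5 peak, as had 40.1% of protein-coding genes, and Ptprc and Tyrobp had no pSmad3 peak, as had 45.8%. Neither antibody had a peak within 100 kb of Ptprc, a feature of 31.1% of protein-coding genes. Just inside the locus limit lay the pSmad1/5 peak of Aif1 at 8446 bp, and just outside the limit the next pSmad3 peak of Spi1 at 11026 bp and the pSmad3 peak of C1qc at 11967 bp.

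The 3 pSmad1/5 peaks at these genes ranked below the middle of their list by total signal, between 30.6% and 44.9%. The 7 pSmad3 peaks were spread from 19.4% to 89.7%, with the highest at C1qa, Csf1r and Spi1. The maxima ran from 13 to 19 for pSmad1/5 and from 12 to 16 for pSmad3, against list medians of 16 and 13. At Aif1 they lay outside the quartiles of the lists, with 13 below 15 to 19 for pSmad1/5 and 16 above 12 to 15 for pSmad3. The pSmad1/5 peaks were 1921 to 2241 bp and the pSmad3 peaks 4497 to 11607 bp long, against list medians of 2385 and 4693 bp. Each of the 10 peaks was the only piece of its call. The maximum lay within the peak for 0 of the 3 pSmad1/5 peaks and 7 of the 7 pSmad3 peaks, against 27.1% and 70.0% of the lists. None of the 10 overlapped a peak of the other antibody by 1 bp, against overlaps for 21.9% of pSmad1/5 and 23.1% of pSmad3 peaks in the lists, and the distances ran from 3838 bp at Csf1r to 91286 bp at Cd68.

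**Figure D3:**
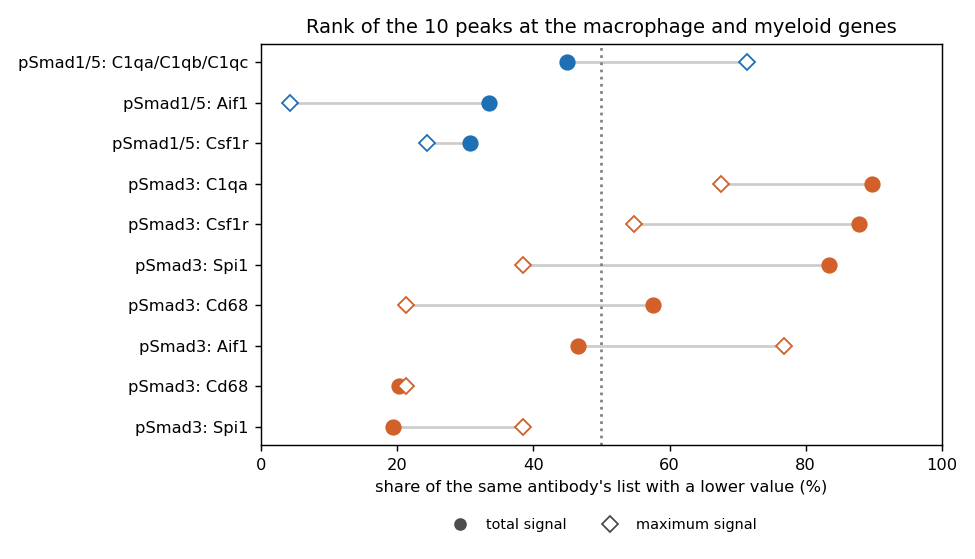
Each row is a peak in the locus of the named gene or genes, with the share (%) of the same antibody's list that has a lower total signal (filled circles) or a lower maximum (open diamonds); blue is pSmad1/5, orange pSmad3, and the dotted line 50%. The pSmad1/5 circles lie at 44.9% or lower, and the pSmad3 circles reach 89.7%.

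Wider lists of blood and myeloid genes stood near the background as a whole. Of 135 other listed genes, 40 had a pSmad1/5 peak (29.6%), 33 a pSmad3 peak (24.4%) and 18 both (13.3%), beside 27.3%, 24.4% and 14.1% of all protein-coding genes. Among 34 further macrophage surface and lysosome genes, 12 were positive for pSmad1/5 and 8 for pSmad3. Fcgr3, an IgG receptor, had 2 peaks of each antibody, with the best total above 94.0% of lines for pSmad1/5 and 97.0% for pSmad3, and maxima of 47 and 38. Axl, a receptor for dying cells, had 1 of each, above 29.9% and 87.1%. At Laptm5, a lysosomal protein of blood cells, a single pSmad1/5 call gave 3 peaks, and pSmad3 gave 1. Fcer1g, a receptor chain that signals much like Tyrobp, had 1 of each at 5171 and 5433 bp from the gene.

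Among 18 myeloid transcription factors, 5 had a pSmad1/5 and 4 a pSmad3 peak. Irf8, a partner of PU.1 in monocyte and macrophage development, had 1 pSmad1/5 peak and 2 pSmad3 peaks. Runx1, needed for blood formation, had 4 and 2 over a gene of 224609 bp. Bhlhe41 had a pSmad3 peak alone and Fli1 had 2 pSmad1/5 peaks alone. The list of CSF1 and SYK signalling had the highest shares of the 8 other lists, 9 and 7 of 18 genes. These are 50% and 38.9%, beside 27.3% and 24.4% of all protein-coding genes. Gene lengths were not matched between the lists, and the difference was not tested. Csf1, a ligand of the receptor encoded by Csf1r, had 2 pSmad1/5 peaks and 1 pSmad3 peak, the strongest above 74.5% and 84.8% of their lists. Il34, the other ligand, had 1 pSmad1/5 peak, with a total above 5.05% of the list, and no pSmad3 peak. The myeloid kinase gene Fgr and the phospholipase gene Plcg2 had peaks of both antibodies. Their best totals were above 11.1% and 49.5% of the pSmad1/5 list and above 25.1% and 32.6% of the pSmad3 list.

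**Figure D4:**
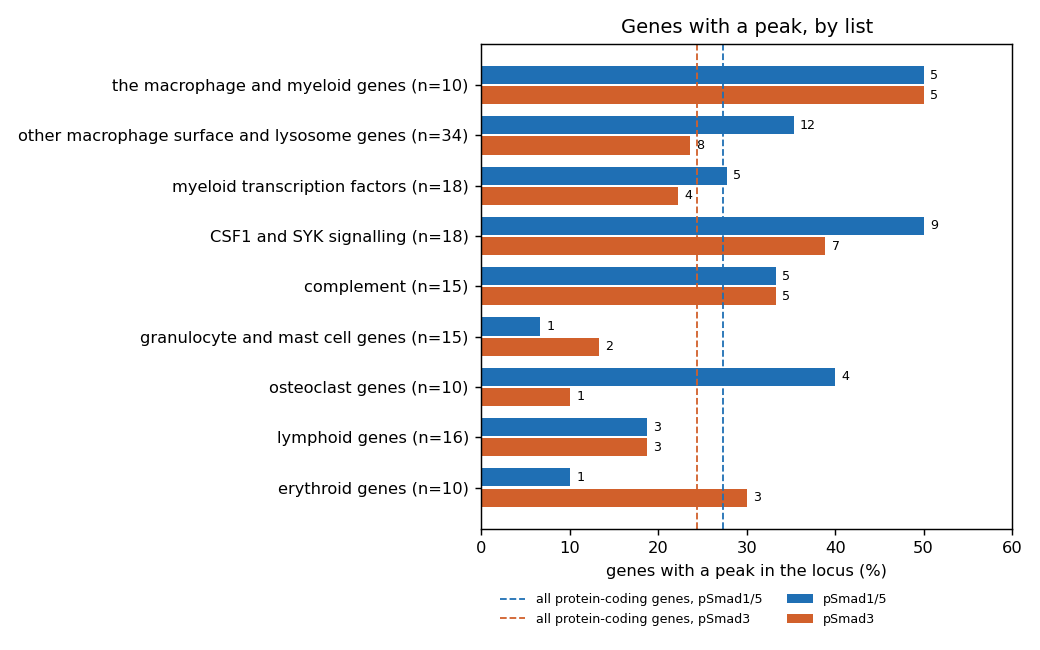
Bars give the share (%) of genes in each list with a pSmad1/5 peak (blue, above) or a pSmad3 peak (orange, below) in the locus, with the number of genes that have a peak at the bar end; dashed lines mark 27.3% and 24.4% of all protein-coding genes. The macrophage and myeloid genes stand at 50% for both antibodies, and the granulocyte and mast cell genes and the lymphoid genes lie below the line of each antibody. Gene lengths were not matched between the lists or to all genes, and C1qa, C1qb and C1qc count separately although they share 1 pSmad1/5 peak.

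Of 15 other genes listed under complement, 5 were positive for pSmad1/5 and 5 for pSmad3. The positives include C1qtnf6 for both antibodies and C1qbp for pSmad1/5, which do not encode chains of C1q. C1ra and C1s1, the proteases that C1q activates, are neighbours, so their counts are not separate. Each had 2 pSmad1/5 pieces of 1 call and 3 pSmad3 peaks, which at C1s1 came from 2 calls. The strongest of these stood above 94.3% of the pSmad1/5 list at both genes and above 97.3% of the pSmad3 list at C1s1. C3, the central complement component, and C1qtnf6 had 1 peak of each antibody. Granulocyte and mast cell genes had 1 and 2 of 15, with Elane and Prtn3, neutrophil proteases, sharing a pSmad3 peak, and Ltf with a pSmad1/5 peak. The total of the shared peak was above 70.0% of its list, and that at Ltf above 5.97%. Osteoclast genes had 4 and 1 of 10, where Nfatc1, the master regulator of osteoclasts, had both, and Acp5, Ocstamp and Mmp9 had pSmad1/5 alone. Totals of the latter were above 77.3% of the pSmad1/5 list at Acp5, 65.0% at Ocstamp and 0.289% at Mmp9. Lymphoid genes had 3 and 3 of 16, with both antibodies at Cd4 and Pax5, pSmad1/5 alone at Cd79b and pSmad3 alone at Cd3e. Best totals for pSmad1/5 and pSmad3 were above 69.5% and 72.9% of their lists at Cd4, and above 52.4% and 1.67% at Pax5. Erythroid genes had 1 and 3 of 10, with both at Slc4a1 and pSmad3 alone at Klf1 (total above 54.0%) and Hba-a1 (above 8.34%).

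Genes with the same number of peaks of each antibody were ranked by nearness in gene length among the 135 other genes. With 1 peak of each, 7 genes matched. C3 was nearest to Csf1r, 1398 bp shorter, and Fcer1g was nearest to C1qa and to Aif1, which it missed by 320 bp. With 1 pSmad1/5 peak alone, as at C1qb and C1qc, 18 genes matched, and C1qbp was nearest to C1qb and Ocstamp to C1qc. No listed gene had the pattern of Spi1 and Cd68, 2 pSmad3 peaks and no pSmad1/5 peak.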

How the data were processed

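The authors deposited 1 list of common peaks per antibody. Per the submitters' processing notes, Bowtie2, SAMtools, bedtools, SEACR and deepTools were used with build mm10. Their versions and settings, any control libraries and the way the libraries were joined are not stated in the sources used. Each line has a position, the authors' deposited total signal of the call, used as a score, the authors' deposited maximum coverage signal, and the region of that maximum. These signals were used to rank peaks within a list, to order genes for naming by those ranks, and as limits in some recomputed counts. Signal values were not compared between the antibodies. Lines with the same total, maximum and maximum region were taken as pieces of 1 call. The lists hold 10741 and 7905 lines for pSmad1/5 and pSmad3, and read depth is unknown.

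Genes came from the RefSeq table of GRCm38.p6, which gives no exons; genes in the first 3 Mb of a chromosome and on the Y chromosome were left out. All 10 genes and all 135 other listed genes matched by symbol. A peak counted when it touched the locus by 1 bp. Distances run between the facing ends of a peak and a gene. The counting was tested on simulated data. The members and lists were chosen with earlier results of these data known, and no test was made. Named genes were the members, the genes over or nearest to their peaks, up to 4 per other list (peaks of both antibodies first, then highest rank) and up to 3 like genes per member, the nearest of which are printed; 1 gene that the rule names is not reported here. Il34, Pdgfrb and the genes named in the surroundings were added after their values were seen. Python 3.11.15, pandas 2.3.3 and numpy 2.4.6 were used. No stretch of chromosome 18 is printed.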

Additional observations from a re-analysis of the deposited data

How the results depend on the processing

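Of 37 recomputed counts, 22 stayed within 1.5 times the reported ones. The number of the 10 genes with a pSmad1/5 peak, a pSmad3 peak and both (5, 5 and 3) depended on the reach of the locus and on a signal minimum. The gene body alone gave 1, 3 and 1 genes, against 18.4%, 16.8% and 8.59% of protein-coding genes. A flank of 5 kb gave 3 genes for pSmad1/5 and 1 for both, against 23.2% and 11.4% of protein-coding genes. Flanks of 20 and 50 kb each gave 6 for both, against 19.2% and 31.9%, and a flank of 100 kb gave 9, 8 and 8, where 59.9%, 54.2% and 45.2% of protein-coding genes had a peak. With lines at or above the median total signal, 0 genes had a pSmad1/5 peak or both, since 0 of the 3 pSmad1/5 peaks remained. For pSmad3, 4 of the 7 peaks remained, and 4 of the 10 genes had a peak. The shares of protein-coding genes were then 14.4% for pSmad1/5, 14.1% for pSmad3 and 6.27% for both. Counting overlapping loci once, done only for the 10 kb flank, gave 3 of 8 loci with pSmad1/5 peaks. The counts at the other flanks take C1qa, C1qb and C1qc as separate genes, although they share their nearest peaks. Peak midpoints, maximum regions, leaving out high maxima and extending a line to its maximum, the last added after seeing the data, each kept the counts within 1.5 times. No replicate could be left out, and no paired analysis was possible because each antibody has 1 joined list. Without counts per library, a missing peak shows only that the common list has no line there.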
